A study of Homo sapiens with 36 samples.

Results

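The genes described here are 28 genes of cholesterol synthesis and of its control by the transcription factor SREBP2, out of 35442 gene symbols with summed values. They were named one by one from the pathway, with earlier results of these data known. They comprise 8 genes of the mevalonate arm, 12 of the sterol arm, 6 of the SREBP2 control machinery and 2 of sterol transport. RNA was sequenced in bulk from MOLM-13 and MONO-MAC-6 cells, established human acute myeloid leukaemia lines labelled wild type and grown in serum-containing medium. Each line received DMSO, the solvent control, or A9 for 72 h before RNA isolation, A9 at 0.125 µM in MOLM-13 and at 0.25 µM in MONO-MAC-6. A9 is a PROTAC, a bifunctional molecule that brings a target protein to a ubiquitin ligase so that it is degraded. The study's design text gives IKK2 and NR4A1 as its targets, while the study's title gives IKK1 and NR4A1. Each of the 4 groups held 9 libraries, and libraries that share the first number of their label were averaged, which left 3 samples per group. Nothing in the labels says that these samples came from separate cultures, so the p-values measure only the spread between them. Line and dose changed together and cannot be told apart.

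Cells build cholesterol from acetyl-CoA through mevalonate, isoprenoid diphosphates, squalene and lanosterol, and the isoprenoids also serve protein prenylation, ubiquinone and dolichol. SREBP2 is made as a membrane protein of the endoplasmic reticulum, where the sterol sensor SCAP escorts it and INSIG proteins hold it back when sterols are plentiful. When sterols are scarce, SCAP carries SREBP2 to the Golgi, site-1 and site-2 proteases release its transcription factor domain, and most synthesis genes and INSIG1 itself are transcribed. SREBP2 binds a short sterol regulatory element, usually beside binding sites of NF-Y, a factor that recognises the CCAAT box.

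Values are TPM, an abundance corrected for transcript length and scaled to a fixed total per library, and the depth of each library is unknown. In bulk RNA, fewer cells of a type and less RNA per cell cannot be told apart. In MONO-MAC-6, 1 sample stood apart on the first principal component of all genes tested there, which held 70.2% of the variance. DMSO sample 1 lay at 63.3 and the other 5 samples between -23.3 and 2.74. In MOLM-13 the first component held 67.6%. DMSO sample 1 lay there at 31.2, A9 sample 3 at -38.0 and all other samples between -14.8 and 13.9. Counts over all members, and the values of some genes, are given below both with and without DMSO sample 1 of MONO-MAC-6. Myeloid markers were present in both lines, 11 or 12 of 12 at 1 TPM or more in each group, and all 5 T-cell markers and 3 fibroblast markers were below 1 TPM. Of 3 endothelial markers, the 1 at 1 TPM or more was PECAM1, which monocytes also carry. The 12 myeloid markers summed to 4385 to 5331 TPM in the MONO-MAC-6 DMSO samples and to 9309 to 9554 TPM in the A9 samples, most of it lysozyme (LYZ), and the part of this shift in the results below was not tested.

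In MONO-MAC-6, genes of both arms of the pathway and INSIG1 were lower with A9, whereas in MOLM-13 no member passed the test. Differences are log2 fold changes of TPM + 1 (A9 minus DMSO), tested by limma across all genes and called at an adjusted p under 0.05. In MONO-MAC-6, 7 of the 28 members were called and all 7 were lower, against 0.855% of the 12862 genes tested in that direction. None was called higher, against 2.51% of all genes. At an unadjusted p under 0.05 there were 15 members, against 20.5% of all genes. The members' median log2 fold change was -0.35, and that of all genes tested was 0.16. In 15 members all A9 samples lay below all DMSO samples, which held for 10.7% of all genes, and in no member did they all lie above, which held for 27.2%.

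**Figure D1:**
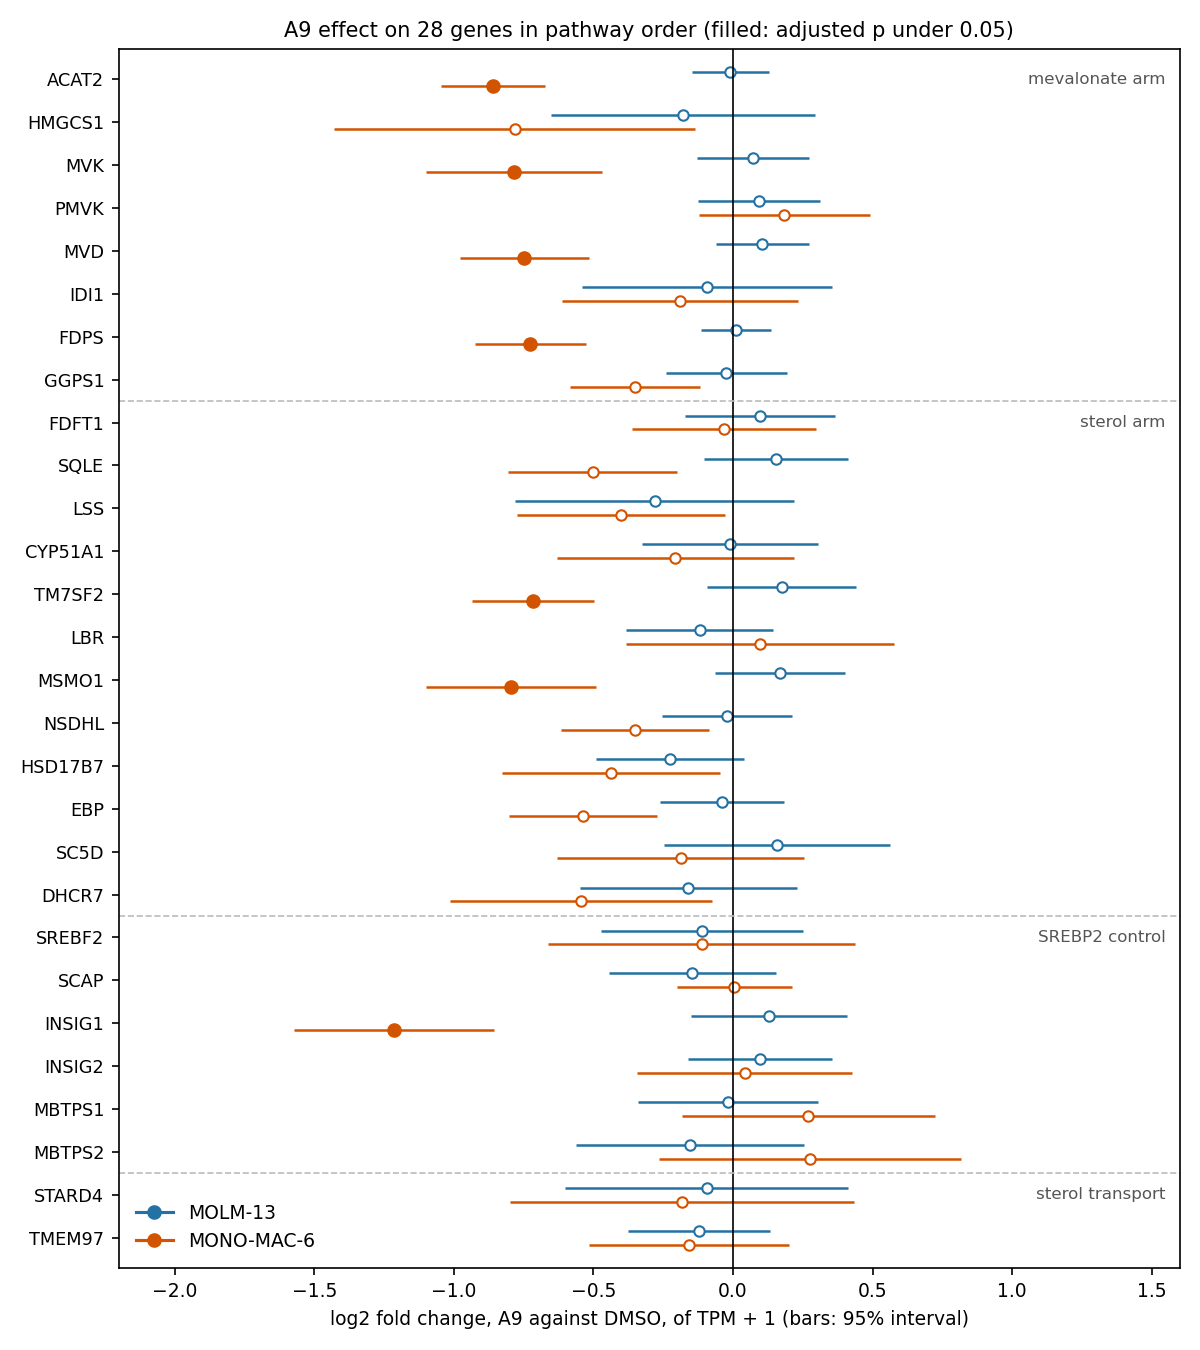
Log2 fold change (A9 against DMSO, of TPM + 1) of the 28 members in pathway order, with 95% intervals from limma, in MOLM-13 (blue) and MONO-MAC-6 (orange); filled points passed an adjusted p under 0.05. The 7 filled points are all in MONO-MAC-6 and all below 0, with INSIG1 the lowest at -1.21.

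INSIG1, the retention protein that is itself a sterol-regulated gene, had the largest change of the members. Its level in MONO-MAC-6 was 36.2, 49.03 and 51.0 TPM in the DMSO samples and 19.8, 18.3 and 18.4 TPM in the A9 samples. The groups did not overlap, and the A9 mean was 58.6% lower (log2 fold change -1.21 ± 0.15 SE, adjusted p = 0.012). In MOLM-13 INSIG1 was at 56.1, 51.1 and 45.5 TPM in DMSO and 59.6, 59.3 and 48.6 TPM in A9. These ranges overlapped, and the log2 fold change of 0.13 ± 0.12 did not pass (adjusted p = 0.87).

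The mevalonate arm held 4 of the 7 called genes. ACAT2, which joins 2 acetyl-CoA molecules at the start of the pathway, was at 103.6, 94.0 and 97.0 TPM in MONO-MAC-6 DMSO samples and at 53.7, 52.4 and 54.8 TPM with A9. The A9 samples lay close together and well below every control, a mean 45.4% lower (log2 fold change -0.86 ± 0.08, adjusted p = 0.0042). In MOLM-13 the same gene was at 87.1, 86.7 and 82.7 TPM in DMSO and 85.6, 86.5 and 82.7 TPM in A9, so that the 95% interval of its log2 fold change ran from -0.15 to 0.13.

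FDPS makes farnesyl diphosphate, the isoprenoid at which sterols and prenyl groups part, and it was the most abundant member in either line. It was at 486.8, 418.0 and 434.2 TPM in MONO-MAC-6 DMSO samples and at 268.4, 265.6 and 272.8 TPM with A9, a log2 fold change of -0.73 ± 0.08 (adjusted p = 0.0091). In MOLM-13 FDPS had means of 289.5 ± 9.58 (SD, n = 3) TPM in DMSO and 291.4 ± 3.73 (SD, n = 3) TPM in A9. The lines were deposited in separate tables, and no test was made between their levels.

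MVD, the decarboxylase that yields isopentenyl diphosphate, was at 60.8, 56.3 and 52.4 TPM in DMSO and at 35.2, 31.9 and 32.6 TPM in A9 (log2 fold change -0.75 ± 0.10, adjusted p = 0.013). MVK, mevalonate kinase, was at 13.7, 11.2 and 13.1 TPM in DMSO and at 6.30, 7.18 and 7.28 TPM in A9 (log2 fold change -0.78 ± 0.13, adjusted p = 0.030). For both genes every A9 sample of MONO-MAC-6 was below every control. In MOLM-13, MVD was at 45.5, 41.1 and 44.9 TPM in DMSO and 46.6, 47.6 and 47.2 TPM in A9, and MVK at 18.7, 17.3 and 18.3 TPM in DMSO and 19.6, 19.1 and 18.4 TPM in A9. The MVD ranges in MOLM-13 were apart in the other direction, by a log2 fold change of 0.10 that did not pass (adjusted p = 0.83).

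The other 4 mevalonate genes were not called. HMGCS1, the synthase that makes HMG-CoA, was at 27.3, 53.0 and 55.6 TPM in MONO-MAC-6 DMSO samples and at 25.7, 24.1 and 24.3 TPM in A9. Its first control was near the A9 level and the other 2 were far above, so a log2 fold change of -0.78 came with an SE of 0.27 and an adjusted p of 0.19. In MOLM-13 it was at 31.5, 27.2 and 21.2 TPM in DMSO and 25.7, 26.3 and 18.2 TPM in A9, ranges that overlapped. GGPS1, which makes geranylgeranyl diphosphate, had a log2 fold change of -0.35 ± 0.10 in MONO-MAC-6 (adjusted p = 0.12), with no overlap between the groups. IDI1, the isopentenyl diphosphate isomerase, had -0.19 ± 0.18 (adjusted p = 0.52). PMVK, phosphomevalonate kinase, had a positive value of 0.18 ± 0.13 (adjusted p = 0.42), with controls of 80.3, 60.1 and 60.7 TPM around A9 samples of 75.5, 75.7 and 75.6 TPM.

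In the sterol arm, 2 of 12 genes were called, both acting on the lanosterol skeleton after its ring is closed. MSMO1, the oxidase that starts removal of the C4 methyl groups, was at 22.8, 29.5 and 27.5 TPM in MONO-MAC-6 DMSO samples and at 14.2, 15.4 and 14.9 TPM with A9 (log2 fold change -0.80 ± 0.13, adjusted p = 0.027). TM7SF2, a sterol C14 reductase, was at 42.5, 44.3 and 47.3 TPM in DMSO and at 26.4, 26.0 and 27.99 TPM in A9 (log2 fold change -0.72 ± 0.09, adjusted p = 0.013). Both genes had low levels in MOLM-13 irrespective of treatment. There MSMO1 was at 8.40, 8.03 and 7.74 TPM in DMSO and 9.38, 8.97 and 9.18 TPM in A9, and TM7SF2 at 4.06, 4.16 and 4.71 TPM in DMSO and 5.16, 5.10 and 4.70 TPM in A9. The A9 samples of MSMO1 all lay above its controls in MOLM-13, by a log2 fold change of 0.17 that did not pass (adjusted p = 0.78), and those of TM7SF2 overlapped their controls.

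LBR, the nuclear envelope protein that carries the same C14 reductase activity as TM7SF2, gave a log2 fold change of 0.10 ± 0.20 in MONO-MAC-6 (adjusted p = 0.77), with controls of 49.7, 84.6 and 78.5 TPM and A9 samples of 75.5, 75.3 and 71.2 TPM. Without DMSO sample 1 its sign turned, to -0.14 ± 0.05 (adjusted p = 0.10). SQLE, squalene epoxidase and a rate-controlling enzyme of the sterol arm, was at 48.5, 63.5 and 62.0 TPM in DMSO and at 40.5, 38.3 and 42.3 TPM in A9. The groups did not overlap, but the log2 fold change of -0.50 ± 0.13 missed the threshold (adjusted p = 0.099). EBP, the sterol isomerase, missed it by less, at 87.6, 68.6 and 71.3 TPM in DMSO and 52.1, 51.2 and 51.7 TPM in A9 (log2 fold change -0.54 ± 0.11, adjusted p = 0.059).

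DHCR7, which makes cholesterol from 7-dehydrocholesterol, had a log2 fold change of -0.55 ± 0.19 (adjusted p = 0.20). HSD17B7, the 3-ketosterol reductase, had -0.44 ± 0.16 (adjusted p = 0.21), and LSS, lanosterol synthase, had -0.40 ± 0.16 (adjusted p = 0.22). NSDHL, which acts with HSD17B7 on the C4 carbons, had -0.35 ± 0.11 (adjusted p = 0.16). In these 4 genes all A9 samples lay below all controls without passing the test. DHCR7 controls spread over 36.7, 50.2 and 63.4 TPM above A9 samples of 33.9, 31.9 and 33.9 TPM, whereas NSDHL controls were close together at 6.45, 6.45 and 6.89 TPM above 4.90, 4.81 and 5.17 TPM. CYP51A1, the lanosterol demethylase, and SC5D, the C5 desaturase, had values of -0.21 ± 0.18 and -0.19 ± 0.18 with overlapping groups. FDFT1, squalene synthase, was listed at only 2.73 ± 0.42 (SD, n = 3) TPM in DMSO and 2.63 ± 0.30 (SD, n = 3) TPM in A9. The sum for FDFT1 is partial, since 21 of its 26 annotated transcripts matched a row of the tables. Its most abundant transcript is not annotated as coding, and coding transcripts held 32.3% of the sum in MONO-MAC-6 DMSO and 50.8% in A9. Also partial are the sums of MVK (13 of 17 transcripts), HSD17B7 (10 of 11), SREBF2 (8 of 9), SCAP (14 of 16) and INSIG2 (7 of 8).

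**Figure D2:**
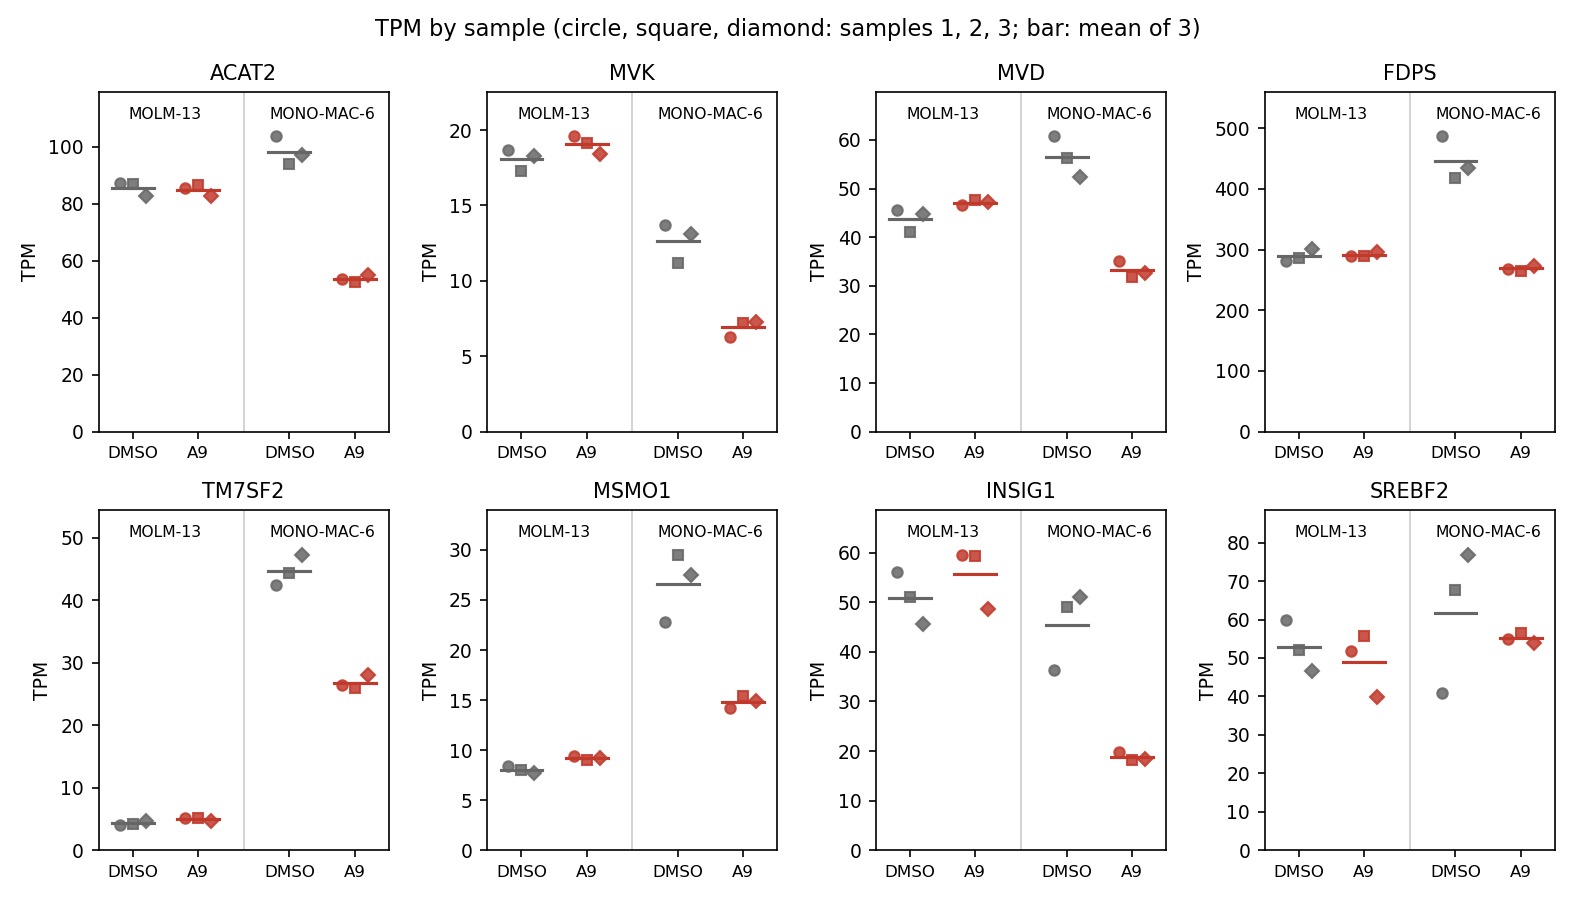
TPM of the 7 called members and SREBF2 in every sample (circles, squares and diamonds are samples 1, 2 and 3; bars are means of 3), in DMSO (grey) and A9 (red). In MONO-MAC-6 the A9 samples of the 7 called genes lie below every control, while SREBF2 controls spread from 40.8 to 76.8 TPM around its A9 samples.

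Of the SREBP2 control genes, only INSIG1 was called in MONO-MAC-6. SREBF2, which encodes SREBP2, was at 40.8, 67.7 and 76.8 TPM in DMSO and at 54.9, 56.5 and 54.0 TPM in A9. The A9 samples lay inside the range of the controls, and the log2 fold change was -0.11 ± 0.23 (adjusted p = 0.76). SCAP was at 56.4, 55.4 and 62.4 TPM in DMSO and 59.4, 55.8 and 59.3 TPM in A9, with a 95% interval of its log2 fold change from -0.20 to 0.21. INSIG2, the second retention protein, was at 7.07, 8.77 and 8.30 TPM in DMSO and 9.36, 8.96 and 6.77 TPM in A9, a log2 fold change of 0.04 ± 0.16. The groups of both genes overlapped. The interval for SREBF2, from -0.66 to 0.44, leaves room for a change in either direction.

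In MOLM-13, SREBF2 was at 59.8, 52.0 and 46.6 TPM in DMSO and 51.7, 55.6 and 39.8 TPM in A9. SCAP was at 37.6, 32.9 and 32.8 TPM in DMSO and 31.99, 35.1 and 26.4 TPM in A9, and INSIG2 at 6.04, 6.42 and 6.11 TPM in DMSO and 6.38, 7.28 and 6.45 TPM in A9. All 3 genes had overlapping groups in this line. The proteases that release SREBP2, MBTPS1 (site 1) and MBTPS2 (site 2), had log2 fold changes of 0.27 ± 0.19 and 0.28 ± 0.22 in MONO-MAC-6 and of -0.02 ± 0.13 and -0.15 ± 0.17 in MOLM-13. Without DMSO sample 1 the MONO-MAC-6 values were 0.06 ± 0.06 and 0.03 ± 0.08. The 2 transport genes, STARD4, a cytosolic sterol carrier, and TMEM97, an endoplasmic reticulum protein that binds sterols, had values of -0.18 ± 0.26 and -0.16 ± 0.15 in MONO-MAC-6. Neither protease nor either transport gene passed the test in a line.

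Control levels of some members were far apart between the lines, which were not tested against each other. The DMSO means in MONO-MAC-6 and MOLM-13 were 44.7 ± 2.42 and 4.31 ± 0.35 TPM for TM7SF2, and 58.0 ± 8.27 and 9.09 ± 0.77 TPM for SQLE (SD, n = 3 each). STARD4 had means of 23.0 ± 7.56 and 6.20 ± 1.82 TPM, and MSMO1 of 26.6 ± 3.44 and 8.06 ± 0.33 TPM. For these 4 genes the lowest MONO-MAC-6 control was above the highest MOLM-13 control. INSIG1 had similar control levels, 45.4 ± 8.02 TPM in MONO-MAC-6 and 50.9 ± 5.30 TPM in MOLM-13, with overlapping ranges.

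In MOLM-13, limma called 0 of the 28 members, against 0.121% of the 11590 genes tested, and 0 members had an unadjusted p under 0.05, against 7.89% of all genes. The members' median log2 fold change was -0.02, and that of all genes was -0.05. The lowest value was that of LSS, -0.28 ± 0.21, at 25.1, 20.4 and 19.5 TPM in DMSO and 19.5, 21.6 and 12.8 TPM in A9, which overlapped. HSD17B7 followed with -0.23 ± 0.11, at 16.3, 14.6 and 13.8 TPM in DMSO and 13.1, 13.2 and 11.4 TPM in A9. It was the 1 member whose A9 samples all lay below the controls, which held for 6.43% of all genes, and MSMO1 and MVD were the 2 whose A9 samples all lay above, which held for 8.59%.

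The difference of the A9 effect between the lines was tested directly, as the interaction of line and treatment over all 12 samples. The same 7 members were called, all with the lower effect in MONO-MAC-6, against 1.07% of the 13401 genes tested. The difference in log2 fold change was -1.34 ± 0.19 for INSIG1 (adjusted p = 0.0045), -0.96 ± 0.14 for MSMO1 (adjusted p = 0.0049) and -0.89 ± 0.12 for TM7SF2 (adjusted p = 0.0033). SQLE was next, with a difference of -0.66 ± 0.16 that missed the threshold (adjusted p = 0.054). For SREBF2 the difference was 0.00 ± 0.30, with an interval from -0.66 to 0.65. With each sample's trend on transcript length removed, the SREBF2 difference was -0.40 ± 0.08 and was called (adjusted p = 0.016). Each of the 7 genes stayed called in all 12 fits that left out 1 sample. Under median-ratio scaling the call of FDPS was lost (adjusted p = 0.056).

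The call within MONO-MAC-6 rested on single samples more than the interaction did. Leaving out DMSO sample 1 raised the members called from 7 to 22. The members' median log2 fold change was then -0.42 and that of all genes 0.03, and 23 members had an unadjusted p under 0.05, against 37.6% of all genes. Of the 22 called, 21 were lower, against 10.3% of the 12917 genes then tested, and 1 was higher, against 14.5%. All 7 members called with every sample were among the 21. HMGCS1 then had a log2 fold change of -1.10 ± 0.06 (adjusted p = 1.9e-05), DHCR7 of -0.75 ± 0.09 (adjusted p = 0.0016), SQLE of -0.62 ± 0.06 (adjusted p = 0.00025) and SREBF2 itself of -0.38 ± 0.06 (adjusted p = 0.0040). Also past the threshold were HSD17B7 at -0.59 ± 0.07, LSS at -0.56 ± 0.07, STARD4 at -0.48 ± 0.07, EBP at -0.43 ± 0.05, GGPS1 at -0.41 ± 0.06 and CYP51A1 at -0.40 ± 0.05. SC5D at -0.38 ± 0.07, IDI1 at -0.37 ± 0.07, NSDHL at -0.36 ± 0.08 and TMEM97 at -0.31 ± 0.05 passed too. For 9 of these 10 genes the value was lower than with all samples, and for EBP, whose first control was its highest, it was closer to 0. The 1 member called higher was PMVK, at 0.32 ± 0.04 (adjusted p = 0.0018). The 6 members called neither way were FDFT1, LBR, SCAP, INSIG2, MBTPS1 and MBTPS2. Leaving out A9 sample 2 or A9 sample 3 instead left 0 members called, against 59 of 12853 and 60 of 12905 genes, of which 3 were lower in each fit. Leaving out A9 sample 1, DMSO sample 2 or DMSO sample 3 left 1, 2 and 5 members, all lower. Of all genes, 15 of 12870, 23 of 12838 and 43 of 12866 were then called lower, out of 120, 119 and 211 called in either direction. The 7 called genes kept log2 fold changes between -1.37 and -0.66 in all 6 of these fits.

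**Figure D3:**
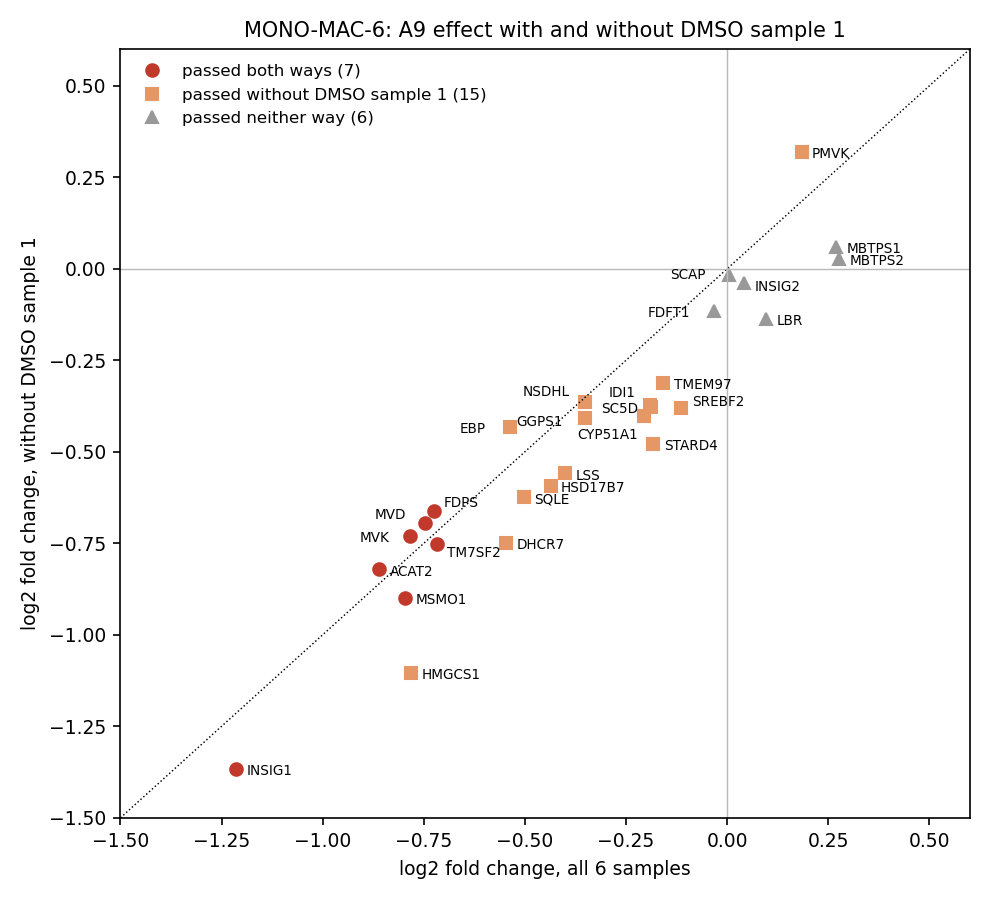
Log2 fold change of each member in MONO-MAC-6 with all 6 samples (horizontal) and without DMSO sample 1 (vertical); the dotted line marks equal values. Circles (7) passed both ways, squares (15) passed without that sample and triangles (6) passed neither way; HMGCS1 moved from -0.78 to -1.10 and SREBF2 from -0.11 to -0.38.

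DMSO sample 1 differed from the other controls in a way that followed transcript length. Against the mean of MONO-MAC-6 controls 2 and 3, it was lower for 22 of the 28 members, and the gap ran from -0.97 (HMGCS1) to 0.40 (PMVK) on the log2 scale. Across the 28 members, whose most abundant transcripts are 886 to 5240 bases long, Spearman's rho between this gap and length was -0.69. In MOLM-13 the first control deviated the other way, with a rho of 0.61. These coefficients describe genes that share the same libraries and carry no test. Removing each sample's trend of values on transcript length gave 18 members called lower in MONO-MAC-6, against 4.16% of all genes, and none higher. Scaling the samples by median ratios moved the median of all genes in MONO-MAC-6 from 0.16 to 0.02 and gave 13 members called lower, against 1.65% of all genes. With that scaling the log2 fold change of INSIG1 was -1.37 and that of ACAT2 -1.02.

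**Figure D4:**
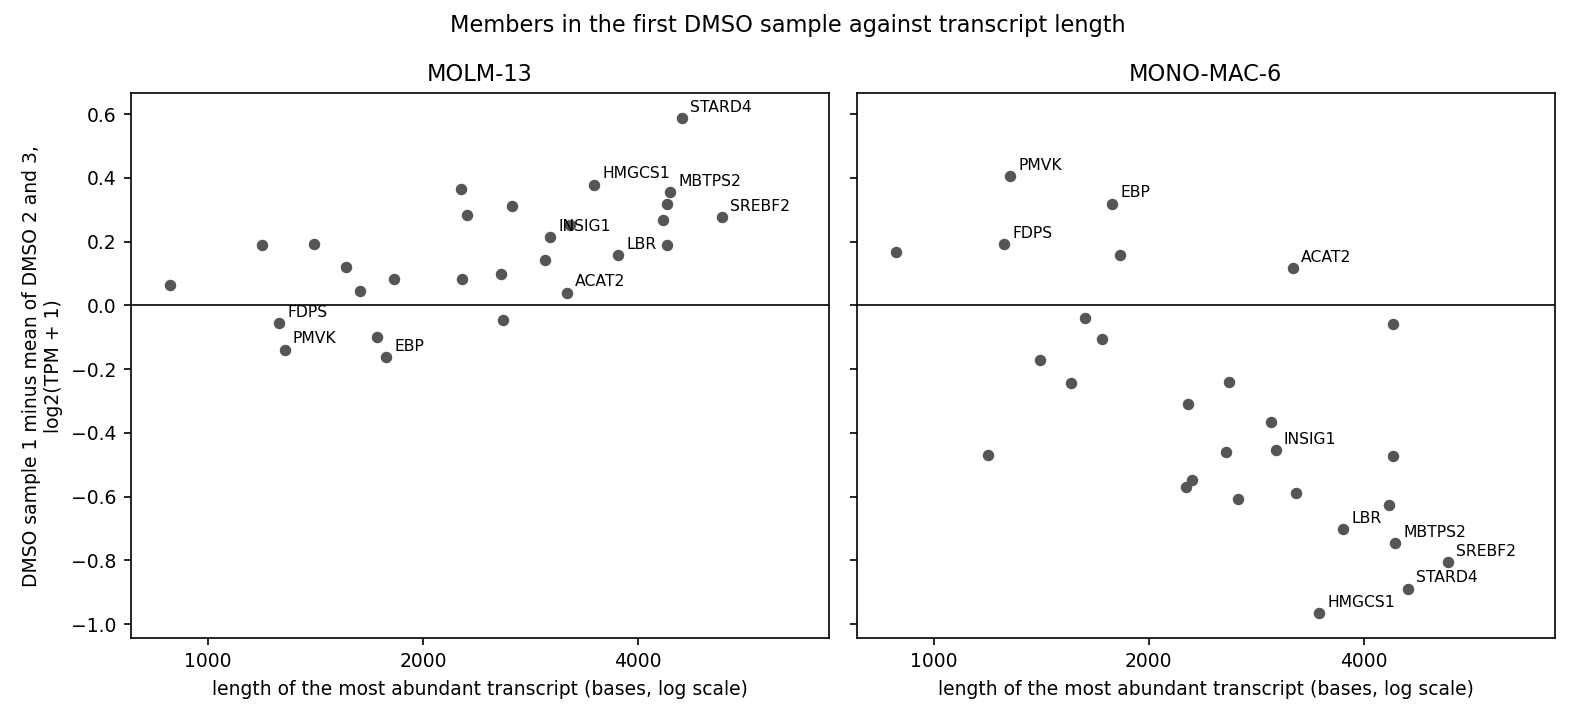
Difference between DMSO sample 1 and the mean of DMSO samples 2 and 3 in log2(TPM + 1) against the length of each member's most abundant transcript (bases, log scale), 28 members per line. In MONO-MAC-6 most members with long transcripts, such as HMGCS1, STARD4 and SREBF2, were lower in that sample. Among the exceptions, SCAP differed little (-0.06) and ACAT2 was higher (0.12). In MOLM-13 most members with long transcripts were higher in the first DMSO sample of that line.

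For some called genes 1 coding transcript held most of the sum. The most abundant INSIG1 transcript, which held 79.8% of the gene's TPM in MONO-MAC-6 controls, went from 36.3 ± 5.23 to 14.2 ± 0.53 TPM with A9, and that of ACAT2, which held 92.4%, from 90.8 ± 6.18 to 50.6 ± 1.30 TPM (SD, n = 3 each). The most abundant SQLE transcript was at 42.2 ± 21.7 TPM in DMSO and 36.6 ± 1.36 TPM in A9, a spread far wider than that of the gene sum. Others were divided among several transcripts, of which the most abundant held 32.9% of FDPS, 33.5% of MVK and 45.7% of MVD in the controls. Of the 28 members, 12 share exon bases with a gene on the opposite strand in GENCODE 29, and whether the authors counted by strand is not given in the sources used here. The largest overlaps on the same strand are of CYP51A1 with AC000120.2 (2844 bases), GGPS1 with TBCE (1422 bases) and MBTPS2 with YY2 (1093 bases). Counting by strand cannot separate these pairs, and how far their shared bases shaped the values of these 3 members was not tested. ACAT2 shares 397 bases with TCP1 and 1141 with SOD2, which were not called in MONO-MAC-6. TCP1 was at 325.5 ± 30.0 TPM in DMSO and 310.1 ± 11.1 TPM in A9, and SOD2 at 52.3 ± 6.23 and 65.4 ± 2.57 TPM (SD, n = 3). MVK shares 306 bases with MMAB, the gene of a cobalamin enzyme with which it is paired head to head, and MMAB was at 23.2 ± 0.68 TPM in DMSO and 17.3 ± 0.79 TPM in A9 (adjusted p = 0.093).

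Promoter sequence was searched for the 2 elements named above in the 250 bases before each RefSeq start (build GRCh38.p14), on both strands. Entries matched 25 of the 28 members, 6 of them called in MONO-MAC-6. The sterol element was searched as TCACNCCAC, where N is any base. It was found in 1 member, SREBF2 itself, and in 1.25% of the 9380 genes that were tested in MONO-MAC-6 and have an entry. The CCAAT box was searched as CCAAT, which reads ATTGG on the other strand, and a pair of matches that overlap counted as 2. It was found in 18 of the 25 members and in 41.6% of the 9380 genes. All 6 called members with an entry held it, as did 12 of the other 19. At least 3 matches were found in 8 of the 25 members and in 5.55% of the 9380 genes, and the 4 called members among the 8 were MVK, MVD, FDPS and MSMO1. A match is a description of letters in this window and not a binding site, and a missing match says only that these letters are not there.

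The stretches below were chosen after the values were seen. SREBF2 is shown because its stretch holds both elements, and 5 called members are shown for their CCAAT boxes, several in MVD and MSMO1 and a single one upstream of both annotated starts in FDPS, TM7SF2 and INSIG1. Each runs 5′ to 3′ on the gene's strand, upstream of the transcript starts of both annotations, with the matched letters in capitals. SREBF2 (chr22:41832960-41833015, plus strand) holds the sterol element followed by a reversed CCAAT box. MVD (chr16:88663162-88663262, minus strand) and MSMO1 (chr4:165327472-165327609, plus strand) each show 3 boxes. FDPS (chr1:155308678-155308706, plus strand), TM7SF2 (chr11:65111786-65111814, plus strand) and INSIG1 (chr7:155297696-155297724, plus strand) show 1 each.
SREBF2: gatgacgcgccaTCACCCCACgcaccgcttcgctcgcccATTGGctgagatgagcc
MVD: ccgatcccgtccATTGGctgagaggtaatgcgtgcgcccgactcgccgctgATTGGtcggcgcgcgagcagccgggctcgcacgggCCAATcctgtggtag
MSMO1: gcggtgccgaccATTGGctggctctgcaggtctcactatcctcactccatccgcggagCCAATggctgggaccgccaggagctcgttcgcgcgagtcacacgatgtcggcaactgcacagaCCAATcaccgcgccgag
FDPS: ttcagcccttccATTGGtcgtccgtcaca
TM7SF2: ccccgagcgccgATTGGctggtgtgctgg
INSIG1: cgccggcctcccATTGGttgcggccgcct
The gene bodies lie just downstream, INSIG1 for example at chromosome 7, 155297776 to 155310235, and SREBF2 at chromosome 22, 41833079 to 41907308, in GENCODE 29 (GRCh38).

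Genes next to the pathway were read from 4 lists in the same tests. Of 19 other factors of SREBP transport, processing and turnover, 18 were tested and none was called in either line, with unadjusted p-values under 0.05 for 6 in MONO-MAC-6 (20.5% of all genes) and 1 in MOLM-13 (7.89% of all genes). Without DMSO sample 1, 3 were called higher and 3 lower in MONO-MAC-6, against 14.5% and 10.3% of all genes. Of 12 genes of SREBP1 and fatty acid synthesis, 2 fell in MONO-MAC-6, against 0.855% of all genes, and none was called in MOLM-13, against 0.121%. Their median log2 fold change in MONO-MAC-6 was -0.33, and that of all genes 0.16. Without DMSO sample 1, 9 were called lower and 1 higher, against 10.3% and 14.5% of all genes. Their median was then -0.55, against 0.03 for all genes. SREBF1, which encodes SREBP1, was at 45.7, 51.5 and 55.1 TPM in DMSO and at 25.8, 23.7 and 24.2 TPM in A9 (log2 fold change -1.01 ± 0.10, adjusted p = 0.0065). FADS2, the delta-6 fatty acid desaturase, was at 116.1, 139.5 and 168.6 TPM in DMSO and at 52.8, 45.2 and 47.6 TPM in A9 (log2 fold change -1.51 ± 0.15, adjusted p = 0.0063). All A9 samples of both genes were below all controls, and without DMSO sample 1 the values were -1.09 ± 0.06 and -1.64 ± 0.10. In MOLM-13 SREBF1 had a log2 fold change of -0.18 ± 0.14 (adjusted p = 0.87).

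Among genes of sterol disposal, the called genes of MONO-MAC-6 were higher. Of 18 genes of sterol esterification, transport, oxidation and efflux, 15 were tested there, with a median log2 fold change of 0.44 against 0.16 for all genes, and 2 were called higher, against 2.51% of all genes, and 0 lower. Without DMSO sample 1, 7 were called higher and 1 lower, against 14.5% and 10.3% of all genes. The median was then 0.23, against 0.03 for all genes. CYP27A1, which oxidises cholesterol to 27-hydroxycholesterol, rose from 13.1 ± 1.13 to 56.5 ± 6.69 TPM (SD, n = 3; log2 fold change 2.02 ± 0.13, adjusted p = 0.0014). APOE, the apolipoprotein that accepts cholesterol leaving macrophages, rose from 190.3 ± 47.4 to 437.7 ± 25.7 TPM (SD, n = 3; log2 fold change 1.22 ± 0.17, adjusted p = 0.019). Without DMSO sample 1 the log2 fold change of CYP27A1 was 1.97 ± 0.10 and that of APOE 1.42 ± 0.06. In the isoprenoid branch, 14 genes of prenyl transfer, ubiquinone and dolichol, COQ2 was the 1 gene called in MONO-MAC-6. It was higher, against 2.51% of all genes, and none was called lower. None of the 14 was called in MOLM-13, against 0.121% of all genes. The median log2 fold change of the branch in MONO-MAC-6 was 0.11, against 0.16 for all genes. Without DMSO sample 1, 3 were called higher, against 14.5% of all genes, and 0 lower, against 10.3%. COQ2, which prenylates the ubiquinone ring, was at 21.5, 22.0 and 20.7 TPM in DMSO and at 32.3, 31.5 and 31.2 TPM in A9 (log2 fold change 0.54 ± 0.09, adjusted p = 0.029).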

How the data were processed

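RNA was sequenced in 36 libraries. The authors deposited TPM per transcript and library, 1 table per line, and each library summed to 1000000 within rounding. Per the submitters' processing notes, kallisto, limma and GRCh38 were used, without versions or roles, and the transcript annotation is not given in the sources used here. TPM hold no counts, so depth is unknown. Of 207175 transcripts, 162526 (78.4%) matched GENCODE 29 and held 89.8% to 91.4% of TPM, and they were summed by symbol. Every annotated transcript was in the tables for 22 of the 28 members.

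Libraries sharing a first number were averaged, since the study states 3 per group and the labels show 9. Testing was limited to genes averaging 1 TPM or more in either group, by limma 3.58.1 in R 4.3.3 (lmFit, eBayes with trend and robust) on log2(TPM + 1), a scale that understates the change of low genes, with two-sided p-values and Benjamini-Hochberg adjustment over all genes tested at a threshold of 0.05. Each line was fitted alone, and the interaction over 12 samples. The method was checked on simulated data. An exact permutation test of 3 against 3 samples was not used, because it cannot pass the threshold.

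Alternatives were a pseudocount of 0.1 TPM, no filter, a minimum of 5 TPM, averaging by the second number, median-ratio scaling, removal of a lowess trend on transcript length (span 0.3), omission of each sample, and a replicate block. Members, lists, markers and the rule for named genes were chosen with earlier results of these data known. The rule gives values of every sample for members called in a line or between lines, for SREBF2, SCAP, INSIG1 and INSIG2, and for the 5 largest changes per line, and names genes of other lists that were called with a mean of at least 5 TPM, and SREBF1. Members outside it whose samples are shown (PMVK, LBR, SQLE, EBP, DHCR7 and NSDHL) were chosen after their values were seen. The rule for promoters asked for called members that hold the sterol element, and none did. RefSeq promoters came from the GRCh38.p14 table. Figures were made with Python 3.11.15 and matplotlib 3.10.9.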

Additional observations from a re-analysis of the deposited data

Results flagged for a closer look

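The A9 effect differed between the lines, by the interaction term of line and treatment in limma, for 7 members, each with the lower value in MONO-MAC-6. The difference in log2 fold change was -1.34 for INSIG1, -0.96 for MSMO1, -0.89 for TM7SF2, -0.86 for MVK, -0.85 for MVD, -0.85 for ACAT2 and -0.74 for FDPS. In MOLM-13 these genes had log2 fold changes from -0.01 (ACAT2) to 0.17 (TM7SF2), and in MONO-MAC-6 from -1.21 (INSIG1) to -0.72 (TM7SF2). Each stayed past the threshold in all 12 fits that left out 1 sample. FDPS missed it under median-ratio scaling (adjusted p = 0.056), and MVK with the replicate block (adjusted p = 0.069). The higher dose was given to MONO-MAC-6, and dose and line cannot be told apart.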

How the results depend on the processing

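The number of members called in MONO-MAC-6 depends on the processing. From 7 it went to 5 without a filter (MVK and MSMO1 missed the threshold, adjusted p = 0.059 and 0.058), 13 after median-ratio scaling, 18 after removal of the length trend and 24 (21 lower) when libraries were averaged by their second number, and leaving out each sample gave 0 to 22. Of all 12862 genes tested, scaling called 568 (212 lower), removal of the length trend 1121 (535 lower) and second-number averaging 8697 (2348 lower). Without a filter, 254 of 25797 genes were called (55 lower). In the 2 fits with 0 members called, each had 10 at an unadjusted p under 0.05. That held for 1399 of 12853 genes without A9 sample 2 and 1530 of 12905 without A9 sample 3. In MOLM-13, second-number averaging called 15 members, against 5437 of 11590 genes, and every other setting run called 0. Between the lines, second-number averaging called 22 members (17 lower), against 8499 of 13401 genes (2156 lower). There were 15 with the length trend removed (750 genes, 389 lower), 10 with median-ratio scaling (511 genes, 222 lower) and 7 to 8 when leaving out each sample. Libraries that share a first number differed by a median SD of 0.06 (log2) over the members in both lines, those that share a second number by 0.16 and 0.20, so averages by the second number mix samples that differ more.

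Over all genes, the calls in MOLM-13 went from 14 to 4 without a filter, 5437 by second-number averaging, 48 with scaling, 184 after removal of the length trend and 2 to 8 when leaving out each sample. In MONO-MAC-6 they went from 433 to 254, 8697 and 1121 without a filter, by second-number averaging and with the length trend removed, and ranged from 59 to 3202 when leaving out each sample. Between the lines they went from 401 to 8499 and 750 by the latter pair, and from 197 to 548 when leaving out each sample. The share of calls in MONO-MAC-6 that were higher was 74.6%. It was 62.7% after scaling, 52.3% after removal of the length trend and 58.4% without DMSO sample 1. None of the 7 members called in MONO-MAC-6 with all samples changed its direction under any setting run. SREBF2, called at -0.38 without DMSO sample 1, reached 0.07 in another fit that left out 1 sample. With the length trend removed SREBF2 was called as well, at -0.40 ± 0.07 in MONO-MAC-6 (adjusted p = 0.018). The cause of these shifts was not tested.

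A replicate block on the first number left 1 member called in MONO-MAC-6 (ACAT2, adjusted p = 0.050) and 6 between the lines (MVK missed the threshold). Of all genes, it called 102 in MONO-MAC-6 (12 lower), 207 between the lines (52 lower) and 87 in MOLM-13. Same-numbered samples deviated from their group means with correlations of 0.36, -0.08 and 0.68 in MOLM-13 and -0.03, 0.09 and -0.09 in MONO-MAC-6. Not every sample correlated best with its own number. With 3 samples per group these correlations cannot decide whether the numbers pair the samples.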
